A study of Mus musculus with 11 samples.

Results

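The promoter windows described here are those in which ST18 chromatin immunoprecipitation (ChIP) gave few reads for the number that the input library gave. They were chosen by one value, the log2 of (0.4055 times the ST18 reads plus 16) over (the input reads plus 16), at or below -0.43, and 355 of 21881 windows (1.62%) met it. The other 21526 windows lay above it. Because the same reads chose the windows, their low values are given as a description, without a test, and whether they would be low again in another library could not be checked.

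ST18 is a zinc finger factor of the MYT1 family, whose members act in neural development and bind a short AAGTTT core through their zinc fingers. In ChIP, chromatin carrying the factor is pulled down with an antibody and sequenced, and an input library of the same kind of chromatin, sequenced without the pull-down, shows how often each place is read without enrichment. The ratio of ChIP to input reads therefore stands for enrichment, and where reads are few it also carries counting error in both columns.

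The labels give a pair of ST18 ChIP samples, marked as ChIP of HA, and 1 input sample of genomic DNA that carries the same HA mark, all in vitro samples called TN and typed as brain cells. The protocol text attached to them describes electroporated embryos and RNA, and the genotype, the age and the source of an HA-tagged ST18 are not given for the ChIP in the sources used here. The deposited table has a single ST18 column and a single input column of whole reads per window of 1000 bp, with 438960 and 160443 reads in all, so no value has a replicate, and whether the ST18 column joins both ChIP samples is not stated. The 4 ST18 knockdown and 4 control RNA samples, from electroporated embryonic cortex, were not analysed here. No expression values accompany the windows, so the cell type was not checked.

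The depleted promoters belong to genes of very different functions. Plekha1, a pleckstrin homology domain adaptor that binds phosphoinositides, had 10 ST18 reads against 18 input reads. Atp6v1e1, a subunit of the vacuolar proton pump, had 13 against 20 reads, and Tube1, the epsilon-tubulin of centrioles, had 3 against 13. Mcm9, a helicase of DNA repair, was the only depleted window with no ST18 read at all, against 9 input reads. Rpl41 encodes a protein of the large ribosomal subunit and had 9 against 14 reads. From neural genes, Slc17a7, a vesicular glutamate transporter of excitatory neurons, had 8 against 12 reads, and Hes5, a Notch-induced repressor that keeps neural progenitors undifferentiated, had 19 against 16.

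The promoters of these 7 genes are shown because they hold the lowest values or the neural and ribosomal genes that the results below return to. Each sequence runs from 250 bases before to 50 bases after a gene start in RefSeq, build GRCm38.p6, 5′ to 3′ on the strand of the gene. It may differ from the counted window, whose position is not stated. Capitals mark the 4 motifs searched on both strands, namely AAGTTT of the MYT1 family, the TATA box TATAAA, the CCAAT box and the GC box GGGCGG. Overlapping matches run together. The stretches are chr7:130865474-130865773 (plus strand) for Plekha1, whose upstream start is shown, chr6:120822649-120822948 (minus strand) for Atp6v1e1, chr10:39133773-39134072 (plus strand) for Tube1, chr10:53629908-53630207 (minus strand) for Mcm9, chr10:128549119-128549418 (minus strand) for Rpl41, chr7:45163671-45163970 (plus strand) for Slc17a7 and chr4:154960673-154960972 (plus strand) for Hes5.
Plekha1: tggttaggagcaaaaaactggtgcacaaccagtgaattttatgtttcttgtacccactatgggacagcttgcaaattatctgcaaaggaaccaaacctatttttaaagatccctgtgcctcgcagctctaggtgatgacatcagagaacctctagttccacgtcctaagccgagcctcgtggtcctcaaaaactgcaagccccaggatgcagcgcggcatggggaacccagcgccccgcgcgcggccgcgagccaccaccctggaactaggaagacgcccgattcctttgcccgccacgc
Atp6v1e1: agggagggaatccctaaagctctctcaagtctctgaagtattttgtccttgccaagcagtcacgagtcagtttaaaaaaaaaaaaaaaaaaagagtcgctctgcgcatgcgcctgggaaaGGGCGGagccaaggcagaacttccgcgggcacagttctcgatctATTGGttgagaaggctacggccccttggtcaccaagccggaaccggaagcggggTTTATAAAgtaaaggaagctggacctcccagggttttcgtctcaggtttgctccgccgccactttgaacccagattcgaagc
Tube1: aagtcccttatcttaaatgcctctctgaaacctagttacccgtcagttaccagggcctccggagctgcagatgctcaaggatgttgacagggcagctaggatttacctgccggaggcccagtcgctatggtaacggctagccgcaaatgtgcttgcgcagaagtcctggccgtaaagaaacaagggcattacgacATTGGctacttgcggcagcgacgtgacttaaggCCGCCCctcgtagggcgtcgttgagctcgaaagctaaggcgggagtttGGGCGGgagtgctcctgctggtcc
Mcm9: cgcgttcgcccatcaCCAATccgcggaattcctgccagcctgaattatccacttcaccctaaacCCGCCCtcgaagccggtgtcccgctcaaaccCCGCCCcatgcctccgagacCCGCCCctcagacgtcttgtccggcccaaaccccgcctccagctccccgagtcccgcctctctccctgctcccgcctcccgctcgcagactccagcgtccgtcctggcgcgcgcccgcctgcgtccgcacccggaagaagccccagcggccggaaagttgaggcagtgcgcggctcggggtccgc
Rpl41: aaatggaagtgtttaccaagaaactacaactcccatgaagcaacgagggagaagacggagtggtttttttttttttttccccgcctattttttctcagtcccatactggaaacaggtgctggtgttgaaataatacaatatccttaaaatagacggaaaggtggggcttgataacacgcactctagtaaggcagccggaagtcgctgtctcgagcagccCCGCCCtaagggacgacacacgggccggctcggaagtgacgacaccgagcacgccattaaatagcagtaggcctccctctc
Slc17a7: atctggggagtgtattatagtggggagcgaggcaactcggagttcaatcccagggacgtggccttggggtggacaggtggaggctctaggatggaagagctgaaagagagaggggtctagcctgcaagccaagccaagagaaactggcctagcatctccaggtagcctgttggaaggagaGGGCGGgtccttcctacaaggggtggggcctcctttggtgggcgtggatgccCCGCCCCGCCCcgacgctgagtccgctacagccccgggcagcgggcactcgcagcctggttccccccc
Hes5: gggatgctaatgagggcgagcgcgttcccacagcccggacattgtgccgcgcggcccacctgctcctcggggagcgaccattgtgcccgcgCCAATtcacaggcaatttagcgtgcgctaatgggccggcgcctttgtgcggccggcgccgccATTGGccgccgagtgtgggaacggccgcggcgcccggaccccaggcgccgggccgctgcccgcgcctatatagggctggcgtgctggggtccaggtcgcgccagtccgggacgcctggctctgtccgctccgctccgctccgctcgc

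None of these 7 stretches holds AAGTTT, which says only that these letters are not in these windows. The GC box occurs 3 times each in Mcm9 and Slc17a7, 2 times in Tube1 and 1 time each in Atp6v1e1 and Rpl41, and the CCAAT box 2 times in Hes5 and 1 time each in Atp6v1e1, Tube1 and Mcm9. The TATA box is found in Atp6v1e1, where both matches overlap. The GC content ranges from 49.3% in Rpl41 to 72.7% in Hes5. The promoter at a second Plekha1 start, which is not shown, has 1 GC box and a GC content of 71.0%.

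Input reads set the depleted windows apart at least as much as ST18 reads did. They held 7 to 25 input reads, with a median of 14 (interquartile range 12 to 16), against a median of 7 (5 to 9) in the other windows. Their ST18 reads ranged from 0 to 28, with a median of 12 (9 to 16), against 20 (14 to 26) in the others. Of the 355, 354 were above the median input count of all windows and 319 were below the median ST18 count. Above the upper quartile of input lay 301, at or below the lower quartile of ST18 lay 236, and 182 met both. In 229 depleted windows the input reads outnumbered the ST18 reads outright, which was so in 338 of the others, although the input library is the smaller. Together the depleted windows held 4471 ST18 and 4970 input reads, a ratio of 0.900 against 2.74 over all promoters. All of this follows from the choice of the windows and is no finding about them.

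**Figure D1:**
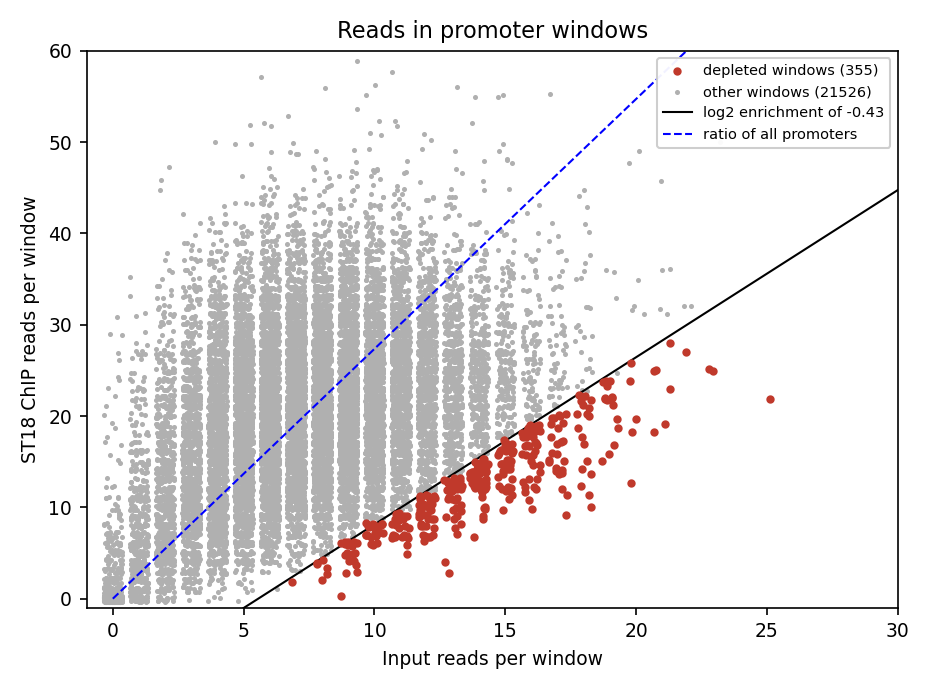
Reads per promoter window, input on the horizontal and ST18 ChIP on the vertical axis, 1 point per window with a small random shift so that equal counts do not hide each other. The 355 depleted windows (red) lie below the solid line of the threshold, at 7 to 25 input reads, and 35 windows with more reads lie outside the axes.

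The threshold sits in a dense part of the distribution. The log2 values of the depleted windows ran from -0.76 to -0.43, with a median of -0.49. Just inside, Hes5, Atpaf2, Bet1l, Galp and Mpp6 each had 19 ST18 against 16 input reads, at -0.433. Just outside, Cdk5rap3, Dnajc19, Krtap4-2, Mirlet7a-1 and Mknk1 each had 10 against 11, at -0.429. Within 0.02 of the threshold lay 64 windows on the inside and 104 on the outside, so membership near it turns on single reads. With no ST18 read, at least 6 input reads are needed to reach the threshold. Such a count was present in 15043 windows, of which the depleted ones made 2.36%. The St18 promoter itself, with 21 ST18 and 7 input reads at 0.09, was not among them.

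How many windows counting error alone would put there was calculated exactly. Each window kept its reads, each read was taken as ST18 or input with one fixed probability, and the chances of reaching the threshold were added over all windows. With the share of ST18 reads of all promoters, 73.2%, the expected number was 144, so 355 were 2.47 times as many. The deposited values are scaled by another factor, 0.4055, which takes 71.1% as the neutral share. With that share counting error gave 293 windows, and 355 were 1.21 times as many. A neutral share 2 percentage points lower thus took up most of the difference, and which share is right cannot be read from 1 column of each kind.

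The upper side answered the choice the other way. At or above 0.43 lay 1026 windows (4.69%), 1.68 times the 611 expected with the share of all promoters and 2.97 times the 346 expected with the share of the deposited factor. When the columns were scaled to equal promoter totals, 572 windows lay at or below -0.43 and 581 at or above 0.43, which were 2.04 and 1.99 times the expected 281 and 292. On that scale the depleted side was thus about as far above its expectation as the enriched side. At the stricter threshold of -0.58, 48 windows (0.219%) were left, 3.69 times the 13 expected with the share of all promoters and 1.46 times the 32.8 expected with that of the factor. These numbers take reads as independent, and how many reads are copies of one fragment was not tested.

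**Figure D2:**
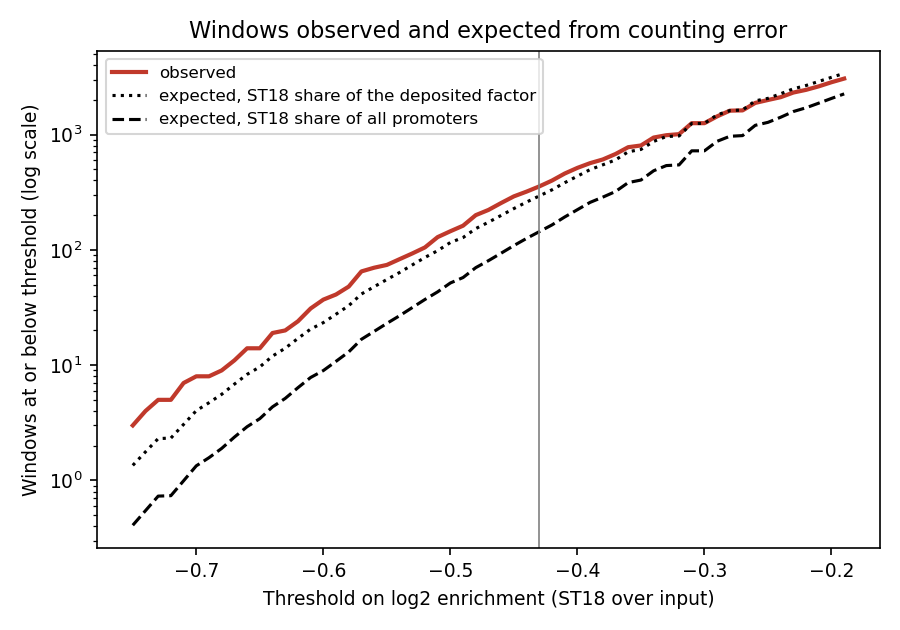
Number of windows at or below each threshold on the log2 enrichment of ST18 over input (vertical axis on a log scale), observed (red) and expected from counting error with both neutral shares (black). At -0.43, marked by the grey line, the curves stand at 355 observed and 293 or 144 expected, and the dotted curve of the deposited factor meets the observed one near -0.3, where 1255 windows were observed and 1248 expected.

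The surplus of depleted windows over both expectations was greatest among windows with few reads. These ranges are not independent of the choice of windows, since the reads that make the ratio also make the total. With 15 to 19 reads in both columns together, 60 windows were depleted, against 12.1 expected with the share of all promoters and 21.4 with that of the factor. With 40 to 49 reads, 26 were depleted, against 18.4 and 42.2 expected, and with 50 or more reads none was, against 2.84 and 7.29. Below 30 reads the depleted windows numbered 234 (1.97% of such windows with reads), against 66.7 or 126 expected. From 30 reads on they numbered 121 (1.28%), against 77.2 or 167. The summed ratio of ST18 to input reads moved along with this: it was 2.09 in windows of 1 to 9 reads, 2.28 at 15 to 19, 2.76 at 30 to 34 and 3.50 at 50 or more. When each range of reads was given its own share, which was decided after the values were seen, 177 depleted windows were expected and the 355 were 2.01 times as many.

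**Figure D3:**
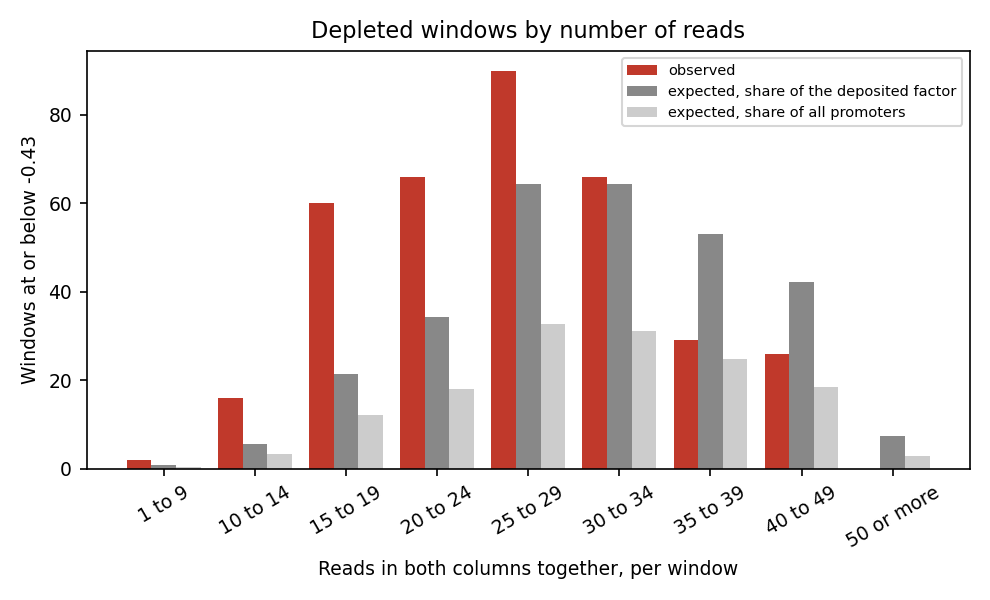
Depleted windows by the number of reads in both columns together, observed (red) and expected from counting error with the share of the deposited factor (dark grey) and of all promoters (light grey). The observed number exceeds both in every range up to 30 to 34 reads, there only just (66 against 64.4 for the dark grey bar), and lies below the dark grey bar from 35 reads on.

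Of the depleted windows, 326 are those of protein-coding genes in RefSeq (1.63% of that class), 12 of microRNA genes (2.12%), 10 of long noncoding RNA genes (1.77%) and 1 of a small nucleolar RNA gene (0.926%). All these shares lie near the 1.62% of all windows. A RefSeq gene was matched for 353 of the 355, 39 of them through an older symbol.

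The 25 lowest named genes, leaving out predicted genes, clone names and small RNAs, had 0 to 22 ST18 reads (median 12) and 9 to 25 input reads (median 17), at log2 values of -0.76 to -0.62. Plekha1 stood first at -0.76, a ratio 0.203 times that of all promoters (exact 95% interval 0.0837 to 0.464), followed by Atp6v1e1 (0.238, 0.109 to 0.502) and Tube1 at -0.75 (0.0843, 0.0154 to 0.307). For Mcm9, with no ST18 read, the interval reached up to 0.185 times the ratio of all promoters. These intervals cover counting error only, and they do not correct for picking the lowest windows.

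Some of the 25 act in RNA and protein production and others in mitochondria. These genes were put together after their values were seen, so their number says nothing about such functions. Paip1, a partner of poly(A)-binding protein in translation, had 4 ST18 against 13 input reads (-0.72). Nop16, a nucleolar factor for the large ribosomal subunit, had 22 against 25, the most input reads of any depleted window (-0.72). Pmpcb, a subunit of the peptidase that trims imported mitochondrial proteins, had 10 against 16 (-0.67). Slc25a37, the mitochondrial iron importer mitoferrin, had 14 against 18 (-0.65).

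The rest have varied functions. Syde1, a GTPase-activating protein, had 9 against 17 reads (-0.75). Klhl2, an adaptor of Cullin ubiquitin ligases, had 12 against 18 (-0.70), and Mcc, named for mutations in colorectal cancer, had 11 against 17 (-0.69). Gstm4, a glutathione transferase, stood at -0.66, Tmtc2, a mannosyltransferase of the endoplasmic reticulum, at -0.66, and Acsl6, an acyl-CoA synthetase of the brain, at -0.62. Further genes were Tmem161a, Ttc12, Heatr5a, Cd302, Fam109b, Fam83b, Actbl2, Cds2, Dscr3 and Rrh, from -0.67 to -0.62. After Nop16, the depleted windows with the most input reads were Lrch4 and Lrch4-sap25 (25 ST18 against 23 input reads each), Tmem106c (27 against 22) and a group at 21 input reads that includes Cd302 (19 against 21), Arf1 (25 against 21) and Aars (28 against 21). The ST18 reads of these named windows lay close to or above the median of 20 over all windows.

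Gene groups were formed from symbols, 54 lists in all, and 175 of the 355 depleted windows fell into at least 1 of them. A group holds the genes whose symbols match its pattern, so it misses genes of the same function with other symbols and takes in some with another function, and each count is that of the pattern. Cytosolic ribosomal protein genes had the highest share among groups with 3 or more depleted windows, 6 of 84 (7.14%, against 1.62% of all windows), where counting error gave 0.608 with the share of all promoters and 1.23 with that of the factor. The members were Rpl41 at -0.61 (9 ST18 against 14 input reads), Rpl30 at -0.57 (7 against 12), Rps14 at -0.55 (18 against 18), Rpl23a at -0.54 (13 against 15), Rpl36 at -0.46 (18 against 16) and Rpl34 at -0.45 (11 against 12). The group as a whole was not low: its median of 0.07 lay above the 0.04 of all windows, its summed ratio was 0.960 times that of all promoters, and 4 of its windows (4.76%) lay at or above 0.43. With the columns scaled to equal totals the depleted members were still 6, against 2.61% of all windows. A separate entry, Rpl34-ps1, had the same counts as Rpl34.

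Of the 54 lists, 20 had a share above that of all windows, among them other groups of RNA and protein production. Of 99 translation factors and aminoacyl-tRNA synthetases, 5 were depleted (5.05%), and 9 (9.09%) lay at or above 0.43. They were Eif3e, a subunit of an initiation factor, at -0.53 (10 ST18 against 13 input reads), the synthetases Qars at -0.50 (11 against 13), Cars at -0.46 (7 against 10) and Aars at -0.44 (28 against 21), and the mitochondrial Lars2 at -0.46 (18 against 16). Of 188 RNA-processing genes, 6 were depleted (3.19%), led by the spliceosomal protein Snrpb2 at -0.54 (20 against 19) and the cleavage factor subunit Cpsf7 at -0.49 (22 against 19), with Rbm26, Rbm5, Lsm6 and Dhx30 from -0.46 to -0.43. Of 76 mitochondrial ribosomal protein genes, 2 were depleted (2.63%), Mrpl54 at -0.49 and Mrps11 at -0.45, while 8 (10.5%) lay at or above 0.43. With the share of all promoters, counting error gave 0.698 translation, 1.29 RNA-processing and 0.552 mitochondrial ribosomal windows. With that of the factor it gave 1.45, 2.65 and 1.16. In these groups windows on the low side stood beside windows on the high side.

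Metabolic and regulatory groups had shares from 1.75% to 3.20%. Of 219 genes for cytochromes P450 and conjugating enzymes, 7 were depleted (3.20%). Gstm4 was lowest, followed by Ces2e, an esterase, at -0.61, Cyp17a1, a steroid-synthesis enzyme, at -0.59, Aldh16a1 at -0.58, Aldh6a1 at -0.56, Cyp2ab1 at -0.49 and the sulfotransferase Sult2a6 at -0.45. The pattern for protein kinases had 5 of 165 (3.03%), with the p21-activated kinases Pak2 at -0.57 (12 ST18 against 15 input reads) and Pak4 at -0.45 (13 against 13), Map3k10 at -0.48, Stk30 at -0.44 and Mapk8ip3, a scaffold and no kinase, at -0.49. It missed the kinase genes Taok2 at -0.51, Igf1r at -0.48, Bckdk at -0.45 and Taok1 at -0.44. The ubiquitin system had 10 of 444 (2.25%), led by Klhl2, Rnf217 at -0.60 and Rnf187 at -0.55, with Psmd8 at -0.53, Usp4 at -0.52 and Rnf186 at -0.51. Of 447 zinc finger genes, 10 were depleted (2.24%), with Zfhx3 lowest at -0.54, then Zbtb4 at -0.52, Zfp26 at -0.50, Zfp192 at -0.50, Zfp189 at -0.48 and Zfp212 at -0.47. The pattern for chromatin regulators had 3 of 125 (2.40%), Mbd3l2 at -0.52, Arid4a at -0.51 and Arid2 at -0.43, and it missed the histone-modifying enzyme genes Myst2 at -0.56 and Dot1l at -0.52. The pattern for small GTPases and their partners had 5 of 286 (1.75%), Arl6ip6 at -0.57, Arf1 at -0.50, Rab3a at -0.46, Rab5b at -0.46 and Arhgef12 at -0.45. Their shares lay between the background and 2 times it.

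**Figure D4:**
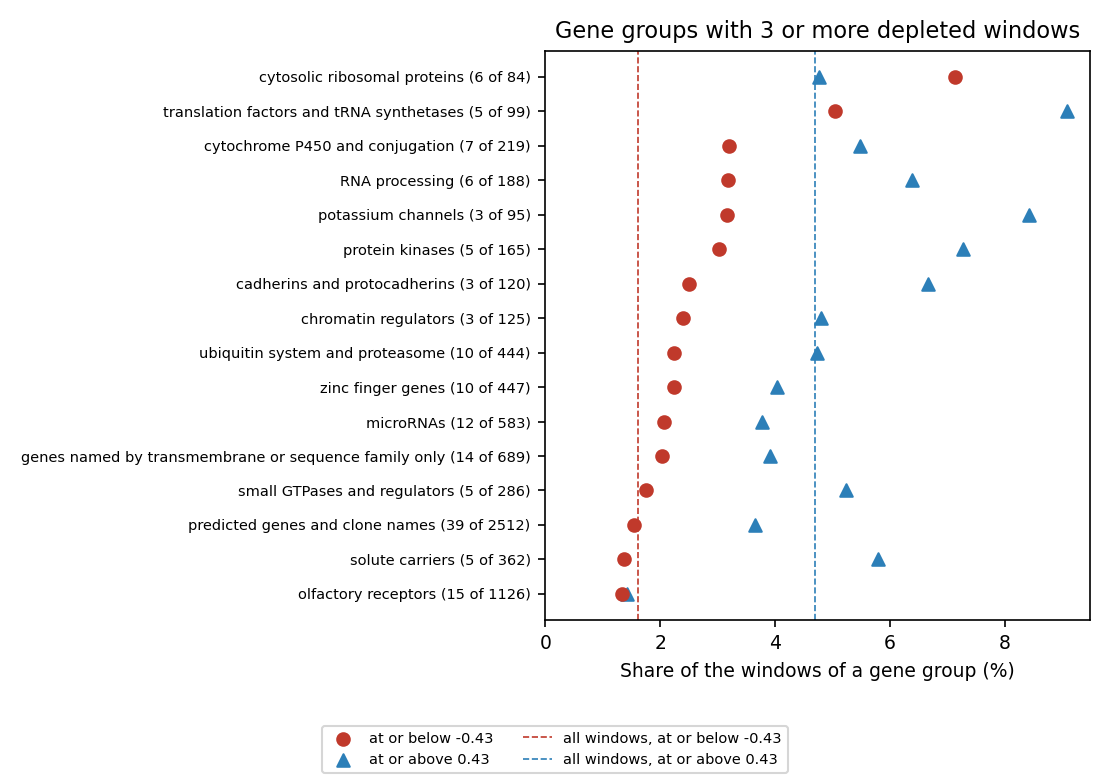
Share of the windows of each gene group at or below -0.43 (red circles) and at or above 0.43 (blue triangles), for the 16 groups with 3 or more depleted windows, beside the shares over all windows of 1.62% and 4.69% (dashed lines). Cytosolic ribosomal proteins stand farthest to the right among the circles, at 7.14%, and olfactory receptors at the left end, at 1.33%.

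The remaining groups with 3 or more depleted windows lay near or under the background, apart from potassium channels and cadherins. Potassium channels had 3 of 95 (3.16%), Kcnj15 at -0.50, Kcnk6 at -0.48 and the calcium-activated channel Kcnma1 at -0.47. Cadherins and protocadherins had 3 of 120 (2.50%), Pcdhb22 at -0.50 (4 ST18 against 9 input reads), Cdh13 at -0.49 and Pcdhb12 at -0.45. The pattern for solute carriers had 5 of 362 (1.38%), Slc25a37, Slc17a7 at -0.54, Slc4a1ap, an adaptor protein and no carrier, at -0.50, the kidney cotransporter Slc12a1 at -0.50 and Slc47a2 at -0.48. Predicted genes and clone names had 39 of 2512 (1.55%), led by Gm572 at -0.73 (11 against 18), and genes named after a sequence feature had 14 of 689 (2.03%), led by Tmem161a.

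Olfactory receptors, the largest gene family of the table, had 15 of 1126 windows depleted (1.33%) and 16 (1.42%) at or above 0.43, lower shares than those of all windows on both sides. Their median was 11 ST18 and 4 input reads, and at least 6 input reads are needed to reach the threshold. The low share therefore does not show depletion below what their reads allow. Counting error gave 4.70 depleted windows with the share of all promoters and 8.72 with that of the factor, both below the 15 observed. The group as a whole was low, with a median log2 value of -0.006 against 0.04 in all windows. Its summed ratio was 0.881 times that of all promoters (interval 0.853 to 0.910). Windows with few reads had lower summed ratios in general, and whether the family differs from them was not tested. Olfr332 was lowest at -0.59 (8 ST18 against 13 input reads), followed by Olfr397 at -0.55 (6 against 11), Olfr508 and Olfr663 at -0.52 (7 against 11 each), Olfr738 at -0.51 (2 against 8) and Olfr1297 at -0.48 (3 against 8). Vomeronasal receptors had 2 of 336 (0.595%), Vmn1r198 at -0.50 and Vmn1r65 at -0.45. Their median was only 2 input reads. For them counting error gave 0.787 depleted windows with the share of all promoters and 1.45 with that of the factor.

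Among microRNA genes 12 of 583 windows were depleted (2.06%), and the mature RNAs of 9 were found in RefSeq. The best known are let-7d and miR-125b, which favour differentiation in many tissues, and members of the miR-92 family. Mirlet7d had 14 ST18 against 17 input reads (-0.61) and Mir125b-1 had 5 against 11 (-0.58). Mir363 had 4 against 9 (-0.50) and Mir92-2, its neighbour on chromosome X, had 6 against 9 (-0.44). Their mature sequences follow to show which are related, with the seed (bases 2 to 8), the part that pairs with targets, in capitals.
mmu-let-7d-5p: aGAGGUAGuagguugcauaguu
mmu-miR-125b-5p: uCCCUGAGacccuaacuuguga
mmu-miR-363-3p: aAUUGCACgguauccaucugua
mmu-miR-92a-3p: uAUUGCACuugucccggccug
The miR-363 and miR-92a strands share the seed AUUGCAC, while let-7d and miR-125b differ from them and from each other. Since the genes of the sharing pair lie next to each other, their windows may hold some of the same reads and are not separate observations. The other depleted microRNA windows were Mir135a-2 at -0.48, Mir199a-2 and the neighbours Mir669m-1 and Mir669m-2 at -0.47, Mir688, Mir691 and Mir546 at -0.44 and the antisense entry Mir1-2as at -0.43.

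Listed genes of cortical development were depleted about as often as all windows, 2 of 121 (1.65%, against 1.62%). Of the 8 lists given gene by gene, which cover ST18 and its paralogs, apical and intermediate progenitors, differentiating neurons, cortical layers, synapses, migration and epithelial-mesenchymal transition, only the apical progenitor list, with Hes5 (1 of 19), and the synapse list, with Slc17a7 (1 of 20), had a member below the threshold. Hes5 is also the only one of 29 Notch pathway windows there, at -0.43 and 0.434 times the ratio of all promoters. Eomes, the marker of intermediate progenitors, and Nfib, a factor of deep-layer neurons and glia, each had 12 ST18 against 12 input reads and lay just outside at -0.42. Hoxa11, a limb and kidney patterning factor, was the only one of 40 HOX windows, with 14 against 14 reads (-0.47). None of 101 chaperone windows, of 161 homeobox windows outside HOX, of 97 respiratory chain windows, of 71 axon guidance windows or of 56 Wnt pathway windows whose symbols match these groups was depleted, beside 1.62% of all windows. For each of these groups counting error gave 0.411 to 0.934 windows with the share of all promoters and 0.853 to 1.89 with that of the factor. Having none therefore says little, and 19 of the 54 lists had none. Genes of such functions outside the patterns were depleted, among them the chaperones Clpb (15 ST18 against 16 input reads, -0.54), Canx (13 against 13, -0.45) and Clgn (15 against 14, -0.44). The homeobox gene Dmbx1 (16 against 15, -0.46), Zfhx3, which encodes homeodomains beside its zinc fingers, and Cycs, the electron carrier cytochrome c (8 against 10, -0.43), were depleted too. Chaperones had 16 windows (15.8%) at or above 0.43. With the columns scaled to equal totals, 3 chaperone, 2 respiratory chain, 1 homeobox and 1 axon guidance window fell below the threshold, and no Wnt pathway window did.

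Other genes with known roles in neurons or in transcription were picked out after their values were seen, so their number says nothing. Synpr, the vesicle protein synaptoporin, had 8 ST18 against 12 input reads (-0.54), and Rab3a, a GTPase of synaptic vesicles, had 7 against 10 (-0.46). Gabra3, a subunit of the GABA-A receptor, had 7 against 10 (-0.46), and Cacna1h, a T-type calcium channel, had 6 against 10 (-0.50). The transcription factor genes Trps1 (12 against 15, -0.57) and Tcfap2b (7 against 11, -0.52) and the coactivator gene Eya1 (9 against 13, -0.56) were depleted as well. So were the corepressor genes Nab1 (8 against 13, -0.59) and Tle2 (18 against 16, -0.46), and Dot1l, a histone methyltransferase gene (12 against 14, -0.52). The counts behind each of them are small.

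In the order of genes in RefSeq, 15 pairs of next neighbours were both depleted, 30 windows in all, and Lrch4 with Lrch4-sap25 and Mir669m-1 with Mir669m-2 had identical counts. How many pairs the 1.62% of all windows that were depleted would give was not calculated. Neighbouring windows may hold some of the same reads, so the 355 may not all be separate observations. Further pairs were Nap1l4 with Cars, Bcar1 with Cfdp1, Chchd3 with Exoc4, Aldh6a1 with Lin52, Slc12a1 with Dut and Ggn with Psmd8. The 676 neighbouring positions that were not depleted had a median log2 value of 0.03, against 0.04 in all other windows. Depleted windows made 1.67% of the 20694 autosomal windows and 0.735% (7 of 953) of those on chromosome X, where the median log2 value was 0.00. With the share of all promoters, counting error gave 2.71 windows on chromosome X. The 7 lay above that number, as the 355 over all windows lay above the 144 expected.

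Promoter sequence was not used in choosing the windows. A RefSeq promoter was found for 263 of the 355 depleted and 16245 of the 21526 other windows. That is under 80% of each, so a check of base composition is void, and the values describe only the promoters found. Their median GC content was 56.3% in depleted and 57.0% in other windows, and the median ratio of observed to expected CpG was 0.647 against 0.610. The share of depleted windows ranged from 1.09% to 1.91% over 9 ranges of GC content, and the summed ratio of ST18 to input reads ranged from 2.28 where the GC content was at most 35% to 2.90 at 65 to 70%.

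**Figure D5:**
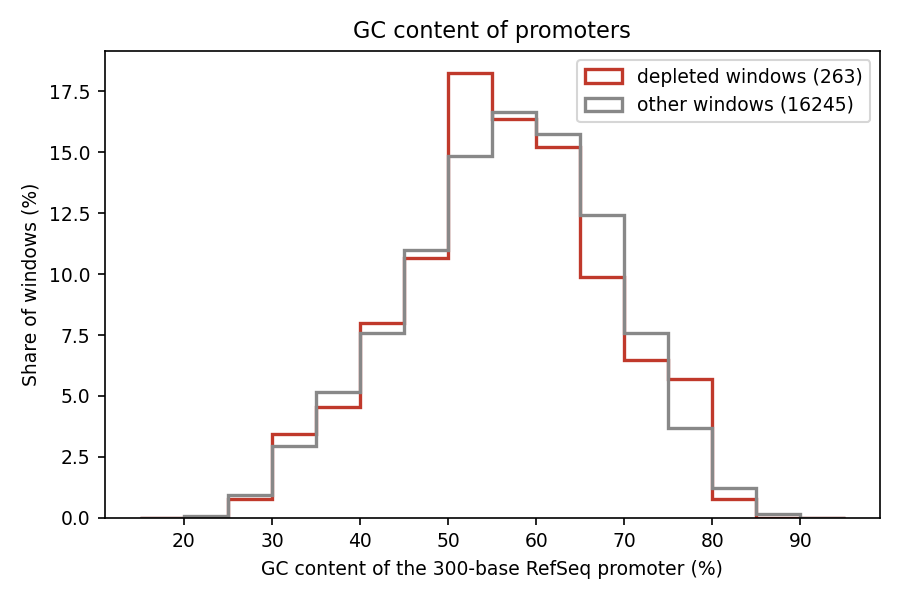
GC content of the RefSeq promoter sequences of depleted (red) and other (grey) windows, as the share of windows in bins of 5 percentage points. The outlines overlap over the whole range, with medians of 56.3% and 57.0%.

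The AAGTTT core of the MYT1 family occurred in 30 of the 263 depleted promoters (11.4%), against 13.6% of all 16508 promoters with a sequence. The TATA box occurred in 11.4% against 13%, the CCAAT box in 41.8% against 39.3% and the GC box in 53.2% against 48.8%. Among promoters of windows with 20 or more reads, the AAGTTT core was found in 11.6% of depleted and 11.5% of all promoters. A match is a run of letters and no evidence of binding, and the searched stretch may not be the counted window.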

How the data were processed

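ST18 ChIP and input reads were taken from the deposited promoter table. Its count columns hold whole reads per window of 1000 bp, and its log2 column is the authors' enrichment, deposited without a description. From the counts, that log2 value was recomputed within 1e-06 in all 21881 windows. The submitters' processing notes name mm9, Bowtie, TopHat2 2.0.8 and other tools, with no roles; how duplicates were treated and where windows lie is not stated there. The deposited peaks were not used, since they carry no gene and the windows no position.

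Expected numbers are exact binomial sums (SciPy 1.17.1, Python 3.11.15), checked on simulated data. Intervals are exact (Clopper-Pearson, 95%) and cover counting error only, as reads are not independent molecules; at a median of 28 reads per window they are wide. No window was filtered out. The members, gene lists and thresholds were chosen with earlier results of these data known. Genes named were the 25 lowest, those with most input reads, those at the threshold, those without ST18 reads, members of lists given by symbols, and up to 6 per pattern list with 3 or more. Every other gene named, including those of smaller lists, near the threshold and in neighbouring pairs, was chosen after its values were seen. A gene that the rule would name is not reported here. Sequences, gene types and gene order come from RefSeq (GRCm38.p6), matched by symbol or a unique synonym for 21660 windows; where a gene has several starts, the first listed was used.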

Additional observations from a re-analysis of the deposited data

How the results depend on the processing

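The 355 windows at or below -0.43 and the 144 expected became 1502 and 850 with a pseudocount of 8, 4117 and 3048 with a pseudocount of 1, 572 and 281 with the columns scaled to equal promoter totals, 565 and 258 centred on the median of all windows, and 48 and 13 at -0.58. All 355 stayed among the windows chosen with either pseudocount, by scaling and by centring. The expected number was 293 with the ST18 share of the deposited factor and 112 with the median share of windows of at least 20 reads. The 1026 windows at or above 0.43 and the 611 expected became 3187 and 2624 with a pseudocount of 8, 581 and 292 by scaling, and 715 and 366 by centring. These changes follow from how the settings were built. The observed number exceeded the expected one at -0.43 under all of these settings, by 1.21 times (factor share) to 3.17 times (median share). Leaving out windows of 5 or fewer input reads could not change the 355, since at least 6 input reads are needed to reach the threshold. The expected number was then 113. That filter left 280 windows at or above 0.43, with 511 expected, but it selects on input reads, which are part of the ratio. Leaving out windows under 20 reads or chemosensory receptors moved neither number at or below -0.43 by over 1.5 times. Against the ratio of the deposited factor, all 25 named folds stayed within their intervals, and 15 of 16 list means lay within the interval of the list median, the exception being predicted genes and clone names (mean 0.04). Shares within ranges of reads, the share without the 2 windows with most reads and the restriction to RefSeq genes were chosen after seeing the data. Fits without either ChIP replicate were not run, as the table has 1 ST18 column. No paired analysis was possible because that column carries no replicate number.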
